A study of Mus musculus with 12 samples.

Results

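The nuclear genes of the mitochondrial respiratory chain and ATP synthase were followed in peeled mouse urothelium, the epithelial lining of the urinary tract, with and without the X-linked cohesin subunit gene Stag2. The members are the gene symbols that begin with Nduf, Uqcr, Cox4 to Cox8 or Atp5, or that read Sdha, Sdhb, Sdhc or Sdhd, in both deposited count tables. The rule used names only and no measured value. It found 90 of the 23337 genes in the tables, of which 36 were assigned to complex I, 4 to complex II, 8 to complex III, 18 to complex IV and 15 to complex V. The remaining 9 symbols are not counted with a complex: Ndufaf1 to Ndufaf4, Ndufa4l2, Cox7a2l, Atp5s, Atp5sl and Cox4nb. Ndufaf1 to Ndufaf4 are complex I assembly factors, Ndufa4l2 is a relative of Ndufa4, and Cox7a2l is a supercomplex factor. Atp5s is named as an ATP synthase factor, and Atp5sl (Dmac2 in the GENCODE annotation) for likeness to Atp5s. Cox4nb shares its first letters with the family but encodes a subunit of an endoplasmic reticulum membrane complex. Ndufa4, once assigned to complex I, was placed in complex IV.

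There were 4 groups of 3 libraries each, one library per numbered sample: Stag2-WT and Stag2-KO urothelium 1 week after the start of a TMX-containing diet, and both genotypes 1 month after it. Mice of both genotypes received the diet, for 1 week. All 6 libraries of 1 week belong to batch 1 of the labels. At 1 month replicates 1 and 2 of each genotype belong to batch 2 and replicate 3 of each to batch 3. The title and the library name of the WT sample of batch 3 carry different numbers, and its counts were matched by the library name. The labels do not give the Cre driver, the deleted exon, the sex or the age of the mice, nor whether a library holds 1 animal or a pool, so p-values measure the spread between these libraries. The comparisons ask what loss of Stag2 does to the urothelial transcriptome early and late after induction.

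Respiratory complexes I to IV pass electrons from NADH and succinate to oxygen. All of them but complex II pump protons across the inner mitochondrial membrane. Complex V, the ATP synthase, uses the resulting gradient to make ATP. Most subunits are encoded in the nucleus and imported, and a small core is encoded by mitochondrial DNA. Subunit genes of different complexes are commonly regulated together, among others by the transcription factors NRF1 and GABPA (also called NRF2), and a few complex IV and ATP synthase subunits exist as tissue-specific isoforms.

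The libraries held 5580961 to 9497088 counted reads, made from the 3′ ends of polyadenylated RNA. Stag2 itself stood at 120, 108 and 154 CPM (counts relative to the library total, scaled by TMM within a time) in the WT libraries of 1 week against 76.0, 61.0 and 69.2 in the KO libraries, and at 59.1, 61.8 and 46.2 against 37.9, 36.3 and 19.3 at 1 month. KO was below WT in every library at both times, with log2 fold changes of -0.89 (SE 0.27, adjusted p = 0.198) and -0.88 (SE 0.22, adjusted p = 0.0507), although whether a 3′ read can detect the deletion depends on the deleted exon. All 3 KO libraries of 1 week carried 6392 to 10406 Xist counts and at most 4 counts from 4 Y-linked genes, whereas the WT libraries had at most 13 Xist and at least 1360 Y-linked counts, so genotype cannot be told apart from sex at 1 week. At 1 month only KO replicate 3 was of the Xist-positive kind, so the WT and KO libraries of batch 3 differ in sex as well. The 12 urothelial markers summed to 9255 to 28630 CPM in the libraries and all were detected, and the 4 skeletal muscle markers summed to at most 16.3 CPM.

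Markers of other cell types were detected and differed between groups. The 6 smooth muscle markers summed to 110 to 289 CPM in WT and 351 to 1091 CPM in KO at 1 week, the 6 fibroblast markers to 3395 to 5554 and 4551 to 9951 CPM, the 4 endothelial markers to 146 to 166 and 241 to 442 CPM, and the 3 markers of dividing cells to 13.9 to 15.2 and 91.2 to 556 CPM. At 1 month the 5 leukocyte markers found summed to 420 to 885 CPM in WT and 165 to 263 CPM in KO. The fibroblast markers summed to 9632 to 13340 and 7591 to 9330 CPM, the endothelial markers to 122 to 152 and 163 to 313 CPM, and the urothelial markers to 15130 to 28630 and 10970 to 15530 CPM. In the WT library of batch 3 the smooth muscle markers summed to 950 CPM, against 88.1 and 171 in the WT libraries of batch 2. The 4 fat markers summed there to 419 CPM, against 94.2 and 66.25. The part of these differences in the results below was not tested, and in bulk samples fewer cells of a type and less RNA per cell cannot be told apart.

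The 81 genes assigned to a complex together took between 0.899% and 1.93% of the CPM of a library. The summed level of each complex overlapped between the genotypes at both times for complexes I, III, IV and V. The 36 complex I genes summed at 1 week to 3866 ± 419.8 CPM in WT libraries (SD, n = 3, as for the next values) and 3788 ± 449.9 CPM in KO libraries, and to 5307 ± 1092 and 4496 ± 517 at 1 month. Complex V had 4039 ± 718 and 4155 ± 1251 CPM at 1 week and 4712 ± 545 and 4312 ± 262 at 1 month.

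Complex II, the succinate dehydrogenase that also works in the citric acid cycle, gave the lowest sum with its 4 genes: 480, 460 and 355 CPM in WT and 385, 471 and 134 in KO at 1 week. At 1 month the complex II sums were 521, 524 and 487 CPM in WT and 507, 564 and 553 in KO, and these too overlapped. In complex IV, the terminal oxidase, the KO libraries of 1 week summed to 2586, 3640 and 1300 CPM against 2994, 3310 and 2567 in WT. The third KO library was the lowest of the 6 for complexes II to V. Without it KO and WT still overlapped for complexes I, II, IV and V, while in complex III the remaining KO libraries (1758 and 2011 CPM) lay above the WT libraries (1724, 1695 and 1378).

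**Figure D1:**
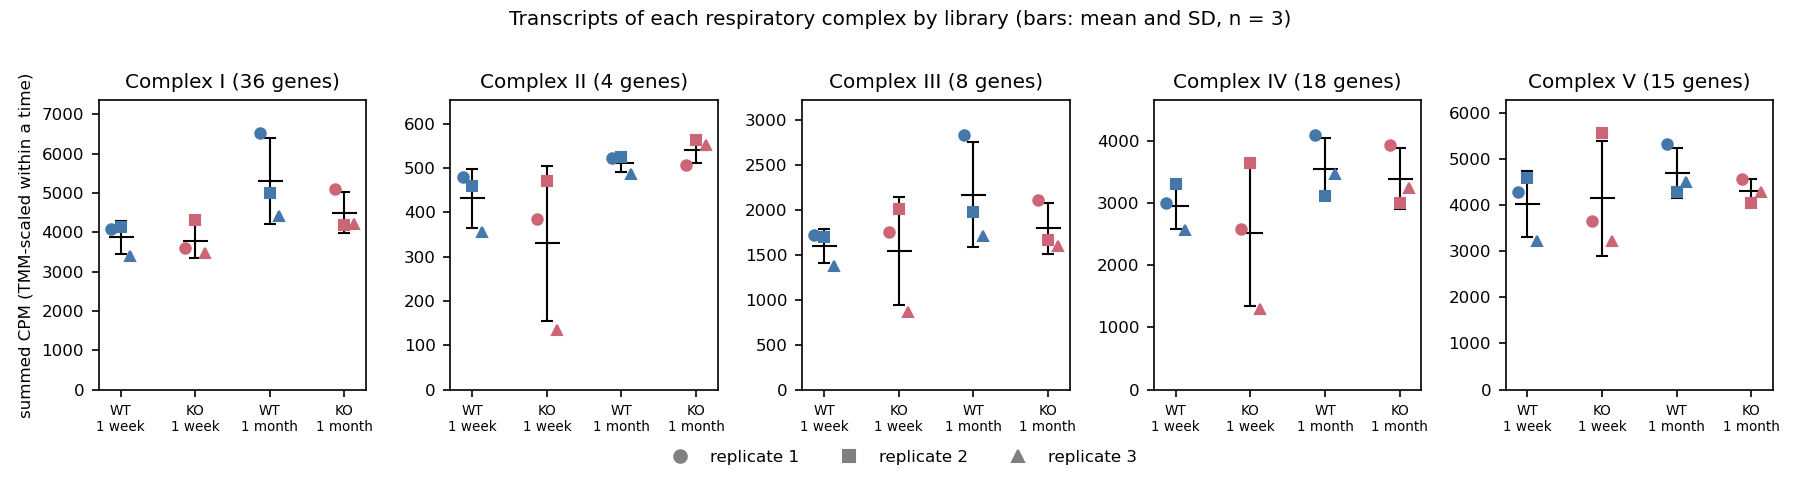
Summed CPM of the genes of each complex (y axis, from 0) in the 12 libraries, by genotype and time (x axis); the symbol gives the replicate and the bars the mean and SD. KO replicate 3 is the lowest library of 1 week for complexes II to V, with 1300 CPM for complex IV.

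Within the complexes the level of single subunits ranged widely. A 3′ library gives about 1 read position per transcript, so CPM was not divided by length, and the levels of genes are given only as read. In complex I the WT means at 1 week ran from 0.04 CPM for Ndufs5, an accessory subunit, to 332 CPM for Ndufa2, another accessory subunit. The most abundant members by mean WT level were Uqcrh (411 to 1038 CPM over the 6 WT libraries) and Uqcr10 (326 to 889) in complex III, Cox4i1 (563 to 1600), Cox8a (459 to 624) and Cox6c (395 to 615) in complex IV, and Atp5l (320 to 871), Atp5k (323 to 1258) and Atp5j2 (274 to 846) in complex V. In complex II they were Sdhb (160 to 294), the iron-sulfur subunit, and Sdha (161 to 217). Ndufs5 had no more than 3.06 CPM in any library, and the last 300 bases of its transcript match another annotated gene at 95% identity or more over at least 50 bases. Such near-identical copies, between which short reads may be split or lost, were found for 22 of the 90 members (24.4%), against 9.86% of 20275 genes, and they include Atp5l (12 copies), Uqcrb (3), Cox7c (3), Atp5g2 (2) and Atp5h (2). Levels of these genes are uncertain for that reason.

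At 1 week no member passed the test: 0 of 85 tested genes had an adjusted p under 0.05 in edgeR's quasi-likelihood test, where 8 of 12754 genes did (0.0627%). At an unadjusted p under 0.05 there were 6 members (7.06%, against 15.5% of all genes), and DESeq2 called 1 member, Atp5k (1.18%, against 7.5% of all genes). The median log2 fold change, KO against WT, was -0.16 for the members and 0.02 for all genes, and 32 of 85 members (37.6%) had a positive value against 51.5% of all genes. That direction turned when KO replicate 3 was left out: the median became 0.06, against -0.03 for all genes, and 51 of 85 members (60%) were positive. Again 0 of 85 members passed, where 2.45% of all genes did, with 3 members at an unadjusted p under 0.05 (3.53%, against 20.4% of all genes).

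By complex, the medians with all libraries were -0.18 for I, -0.43 for II, -0.11 for III, -0.15 for IV and 0.14 for V. Without KO replicate 3 they were 0.04, -0.46, 0.15, 0.10 and 0.12. The signs for complexes I, III and IV thus rested on that library, while those of II and V did not. The 5 members that were not tested, Cox6a2, Cox7b2, Cox8b, Cox8c and Ndufs5, fell below the count filter.

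**Figure D2:**
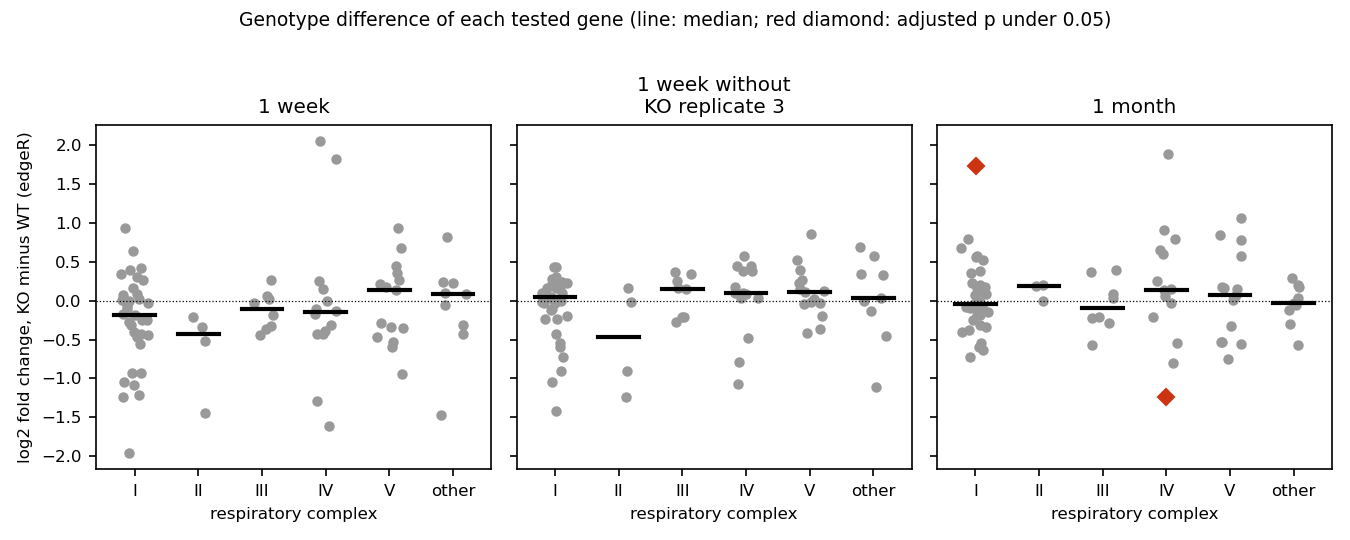
Log2 fold change of each tested gene (y axis, KO minus WT) by complex (x axis) at 1 week, at 1 week without KO replicate 3 and at 1 month; lines are medians and red diamonds have an adjusted p under 0.05. The medians of complexes I, III and IV lie below 0 in the first panel and above 0 in the second, and the diamonds at 1 month are Ndufa8 and Cox6b2.

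The member with the smallest p at 1 week was Atp5k, which encodes subunit e of the membrane part of the ATP synthase. Its level was 401, 353 and 323 CPM in WT and 657, 682 and 725 CPM in KO. All 3 KO libraries lay above all WT libraries, the third among them. edgeR put the log2 fold change at 0.94 (SE 0.26, adjusted p = 0.171), and at 0.85 (adjusted p = 0.0682) without KO replicate 3. DESeq2 gave 0.94 with an adjusted p of 0.00611. Over 13 alternatives its adjusted p ran from 0.00611 to 0.583.

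Accessory subunits of complex I gave no call either. Ndufb3 had the lowest fold change of all members, -1.96 on the log2 scale (SE 1.29), with 89.9, 131 and 39.9 CPM in WT and 12.9, 53.4 and 0 in KO, which overlapped. Ndufa1, an X-linked gene, had -1.23 (SE 0.57), with 36.3, 58.3 and 32.1 CPM in WT and 12.8, 33.3 and 7.35 in KO, which overlapped. Ndufa5 had 0.93 (SE 0.46), a value carried by 474 CPM in KO replicate 3 against 209 and 147 in the other KO libraries, and 0.25 without that library.

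Sdhc, a membrane anchor of complex II, stood at 56.8, 74.8 and 32.6 CPM in WT and 11.2, 35.7 and 13.3 in KO, which overlapped (log2 fold change -1.44, SE 0.54, adjusted p = 0.271). Its partner anchor Sdhd was read at 2.16 to 7.81 CPM only and gave -0.51 (SE 0.61). Sdha, the flavoprotein, gave -0.34 (SE 0.45), and -0.02 without KO replicate 3. In complex III the values were small: Uqcrc2, a core protein, had -0.32 (SE 0.28), Uqcrb -0.36 (SE 0.33) and Uqcrfs1, the Rieske iron-sulfur protein, -0.44 (SE 0.43).

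Complex IV held the highest fold change. Cox6b2, the isoform of subunit 6B known from testis, was at 6.55, 6.64 and 7.97 CPM in WT and 10.4, 9.59 and 69.0 in KO (log2 fold change 2.06, SE 0.79, adjusted p = 0.283). The groups did not overlap, but the log2 fold change was 0.45 without KO replicate 3. Cox4i2, the isoform of subunit 4 linked to low oxygen, was at 0.85, 0.93 and 3.62 CPM in WT and 3.37, 0.77 and 15.7 in KO (1.83, SE 1.09), and at 0.10 without that library. Cox7c, a small subunit, was at 118, 238 and 46.1 CPM in WT and 18.5, 111 and 1.63 in KO (-1.62, SE 1.21).

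Of the ATP synthase genes beside Atp5k, Atp5d, the delta subunit of the catalytic head, was at 189, 220 and 226 CPM in WT and 234, 292 and 494 in KO (0.68, SE 0.34). Atp5h, subunit d of the peripheral stalk, was at 317, 304 and 333 CPM against 244, 268 and 117 (-0.60, SE 0.36). Both sets of libraries stood apart, in opposite directions, and neither passed the test. Among the symbols outside the complexes, Ndufaf1 was at 6.92, 5.01 and 6.93 CPM in WT and 10.2, 10.7 and 12.4 in KO (0.82, SE 0.35, adjusted p = 0.316). Atp5s was lower in each KO library, at 2.97, 2.76 and 0.61 CPM against 5.34, 7.81 and 4.86 (-1.46, SE 0.60). Cox7a2l, which joins complexes III and IV, gave -0.31 (SE 0.29).

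Counting libraries in place of tests, every KO library was above every WT library for 11 of 85 members (14.1% of all genes) and below for 3 (12.5% of all genes), together 16.5%, against 26.5% of all tested genes. The 11 were Ndufa2, Ndufa11, Ndufc1, Ndufs6, Cox6b2, Atp5d, Atp5g1, Atp5j2, Atp5k, Cox4nb and Ndufaf1, and Atp5h and Atp5s were among the 3. Without KO replicate 3 the count was 24 (28.2%), against 37.9% of all genes, with 19 above (21% of all genes) and 5 below (17% of all genes). The members' share was below the background share in both counts.

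KO replicate 3 of 1 week differed from the other KO libraries most in the short transcripts, to which the family largely belongs. The median transcript of the 80 members with a mean of at least 50 counts was 891.5 nt long, against 3112 nt for all such genes. Relative to the mean of KO replicates 1 and 2, on the log2(CPM + 1) scale, the median member was at -1.09 in this library and the median gene at -0.08. Of the 80 members 42 were below -1 and 5 were above 1. By length, the median of all genes went from -1.35 for transcripts of up to 700 nt to 0.19 for those over 3000 nt, while the members' medians did not follow length steadily. They were -1.66 up to 700 nt (28 genes), -2.16 above that and up to 1000 nt (16 genes), -0.91 to 1500 nt (15 genes), -0.26 to 3000 nt (15 genes) and -0.37 above (6 genes). Across members the rank correlation with transcript length was 0.311 and across all genes 0.264, points that share the same libraries and are not replicates.

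Within that library the small subunits went both ways. Complex IV had the lowest median, -2.77 over 12 genes, with 10 below -1, and the values of Cox6a1 (-3.48), Cox6b1 (-3.36), Cox8a (-3.21) and Cox7c (-4.15) were among them. Atp5g2 and Atp5g3, which encode the same c-ring subunit of the ATP synthase as Atp5g1, were at -4.87 and -4.88, whereas Atp5g1 was at -0.17. Ndufb3, an accessory subunit of complex I, had no count there, which allows up to 3 counts (0.61 CPM). The other KO libraries had 12.9 and 53.4 CPM. In the other direction lay Cox6b2 (2.67), Ndufa5 (1.43), Atp5b (1.21), Ndufa2 (1.01) and Atp5f1 (1.01).

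**Figure D3:**
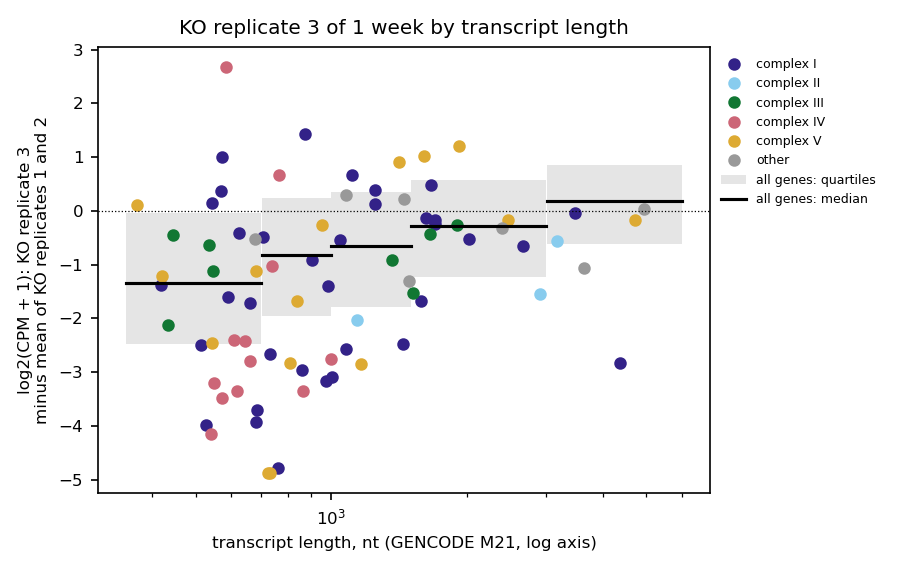
Difference of KO replicate 3 from the mean of KO replicates 1 and 2 at 1 week (y axis, log2(CPM + 1)) against transcript length (x axis, log scale) for 80 members, coloured by complex; grey bands and black lines give quartiles and medians of all genes by length class. Complex IV genes lie mostly below -2, while Cox6b2 stands at 2.67.

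This library carried most of the members' variation. In a principal component analysis of the 80 members, on log2(CPM + 1) centred for each gene over the 12 libraries, the first component held 71.6% of the variance and the second 19%. KO replicate 3 of 1 week scored 16.57 on the first and the other 11 libraries between -5.49 and 3.29. The WT libraries of 1 month in batch 2 scored 3.24 and 3.29, while the WT library of batch 3 scored -4.10. The genes at the low end, Ndufb3, Cox7c, Atp5g2, Atp5g3, Ndufa4 and Ndufa8, differed between libraries of the same group. Ndufa4 was at 34.0, 79.9 and 13.3 CPM in WT and 5.66, 43.8 and 2.25 in KO at 1 week.

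**Figure D4:**
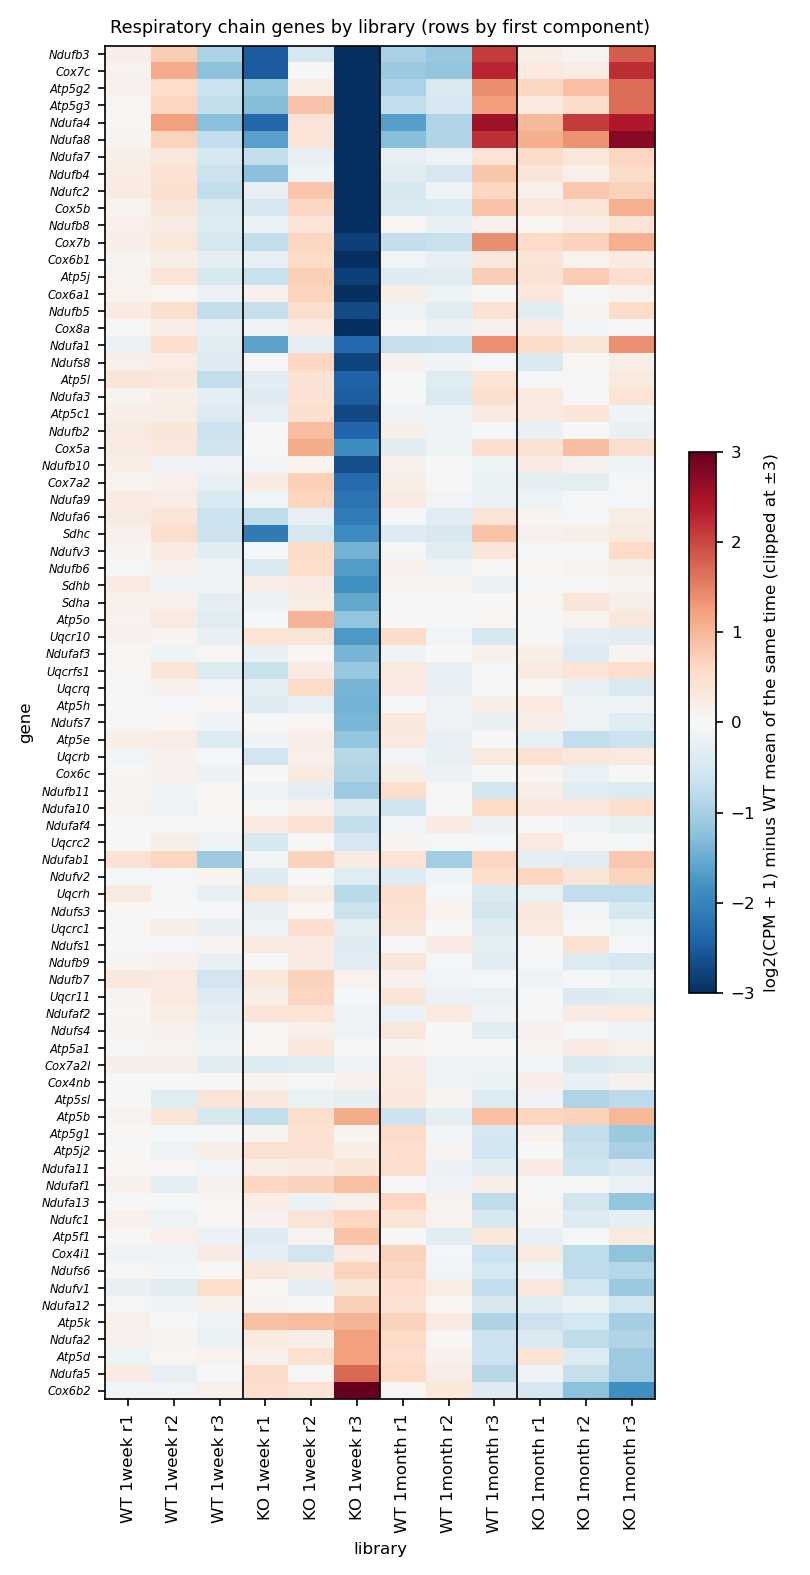
Difference of each library (columns) from the WT mean of the same time, in log2(CPM + 1), for 79 members (rows, ordered by their weight on the first component). KO replicate 3 of 1 week is dark blue over the upper part of the map and red at Cox6b2, Ndufa5 and Atp5d; at 1 month the upper rows are blue in WT replicates 1 and 2 and red in both replicates of batch 3.

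At 1 month 2 of 84 tested members passed, Ndufa8 upward and Cox6b2 downward, where 2.22% of 12139 genes did. The median log2 fold change was 0.04 for the members and -0.01 for all genes, and 45 of 84 members (53.6%) were positive, against 49.6% of all genes. An unadjusted p under 0.05 was reached by 25 members (29.8%), against 21.5% of all genes. By complex the medians were -0.05 for I, 0.19 for II, -0.09 for III, 0.14 for IV and 0.07 for V. Counts of calls depended on the libraries: none passed when any one of the 4 batch 2 libraries was left out, and 15 passed without either library of batch 3. Of all genes, 0.361% to 0.674% passed in the former fits and 12.3% in the latter. The latter rest on the batch 2 libraries alone, because a single batch 3 library is taken up by its own batch term. No member and no other gene passed without the batch term, and DESeq2 called 6 members (7.14%, against 6.33% of all genes).

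Ndufa8, an accessory subunit of complex I on the intermembrane space side, rose in KO by 1.73 on the log2 scale (SE 0.37, adjusted p = 0.0371). Its level was 4.91, 6.64 and 64.7 CPM in WT and 29.5, 35.5 and 94.4 in KO. KO was above WT within batch 2 and within batch 3, but the WT library of batch 3 lay above both KO libraries of batch 2. On the log2(CPM + 1) scale the difference was 2.31 in batch 2 and 0.54 in batch 3. Over 15 alternatives the fold change kept its sign and the adjusted p ran from 1.12e-08 to 0.75. At 1 week its log2 fold change was -0.93 (SE 0.91). The gene lies at chr2:36036326-36049406 on the minus strand of GRCm38.

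Cox6b2 fell by 1.24 on the log2 scale (SE 0.30, adjusted p = 0.0481). It stood at 21, 25.3 and 15 CPM in WT and 13.9, 7.97 and 4.86 in KO, and no KO library reached any WT library. The difference was -1.06 within batch 2 and -1.45 within batch 3. It lies at chr7:4751792-4753094, minus strand. Its ubiquitous partner Cox6b1 was at 172, 153 and 229 CPM in WT and 237, 196 and 217 in KO, with a log2 fold change of 0.25 (SE 0.21). Over 15 alternatives the adjusted p of Cox6b2 ran from 0.00318 to 0.567.

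The promoters of Ndufa8, Cox6b2 and Atp5k are shown because these 3 genes gave the calls and the smallest p of 1 week. Each is the 250 bases before the RefSeq start on GRCm38.p6, written in the direction of the gene, with matches to GCATGCG, the core of the NRF1 motif, in capitals. In the GENCODE M21 annotation Ndufa8 and Atp5k start inside these windows, at 36049406 and 108434448. The NRF1 match of Ndufa8, at the end of its window, thus lies within the GENCODE gene. That of Atp5k also lies within its GENCODE gene, at the very start. Matches on both strands overlap where the letters are palindromic, so a run of capitals is longer than the core. The ETS motif CCGGAAG, which GABPA binds, was searched on both strands as well.
Ndufa8, chr2:36049339-36049588, minus strand: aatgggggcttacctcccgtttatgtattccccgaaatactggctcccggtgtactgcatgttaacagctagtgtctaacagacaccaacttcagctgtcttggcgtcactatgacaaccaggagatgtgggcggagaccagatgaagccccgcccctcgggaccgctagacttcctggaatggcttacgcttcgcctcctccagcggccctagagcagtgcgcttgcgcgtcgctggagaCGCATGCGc
Cox6b2, chr7:4753095-4753344, minus strand: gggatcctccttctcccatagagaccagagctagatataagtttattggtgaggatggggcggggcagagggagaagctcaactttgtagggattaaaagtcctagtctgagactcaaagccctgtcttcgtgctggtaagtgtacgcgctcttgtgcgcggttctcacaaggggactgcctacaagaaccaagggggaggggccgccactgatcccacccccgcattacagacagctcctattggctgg
Atp5k, chr5:108434400-108434649, minus strand: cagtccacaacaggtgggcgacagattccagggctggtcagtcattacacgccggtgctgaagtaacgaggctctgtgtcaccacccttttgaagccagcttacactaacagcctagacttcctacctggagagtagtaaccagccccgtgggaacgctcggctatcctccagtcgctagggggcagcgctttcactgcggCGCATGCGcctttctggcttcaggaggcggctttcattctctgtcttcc
Ndufa8 and Atp5k held the NRF1 core, Cox6b2 did not, and none of the 3 held the ETS motif. Promoters were found for 74 of the 90 members, in 80 windows. The NRF1 core was present in 12.5% of these windows and in 3.02% of all 32851 windows, and the ETS motif in 16.2% and 6.91%. A longer form of the NRF1 motif, searched first, was present in 18.8% and 3.74%. A match describes letters and is not a measured site.

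Of the 10 complex I genes at an unadjusted p under 0.05 at 1 month, Ndufa2 and Ndufa1 had the smallest p after Ndufa8. Ndufa2 was at 1069, 728 and 451 CPM in WT and 512, 415 and 377 in KO, lower in KO within each batch (log2 fold change -0.72, SE 0.25, adjusted p = 0.126). Ndufa1 was at 8.44, 8.62 and 38.6 CPM in WT and 21.6, 18.6 and 38.9 in KO (0.79, SE 0.29), a difference seen in batch 2 and near 0 in batch 3. For complex II, Sdha gave 0.20 (SE 0.20) with every KO library (220, 274 and 240 CPM) above every WT library (214, 215 and 211), and Sdhc gave 0.19 (SE 0.28). In complex III Uqcrh, the hinge protein, was at 1038, 717 and 548 CPM in WT and 641, 441 and 446 in KO (-0.56, SE 0.25), and Uqcrb and Uqcrfs1 gave 0.37 (SE 0.20) and 0.40 (SE 0.23).

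The ATP synthase had the largest share of small p, with 8 of 15 tested genes (53.3%) at an unadjusted p under 0.05. Among all genes the share was 21.5%. The 8 went both ways: Atp5b, Atp5g2, Atp5g3 and Atp5j were higher in KO, and Atp5e, Atp5g1, Atp5j2 and Atp5k were lower. In edgeR 0 passed the adjusted threshold. In DESeq2 3 did, Atp5b, Atp5g2 and Atp5g3, where 6.33% of all genes passed. Atp5g2 was at 50.8, 71.5 and 260 CPM in WT and 152, 184 and 318 in KO (1.06, SE 0.27, adjusted p = 0.0544). Atp5g3 was at 94.8, 113 and 382 CPM in WT and 197, 236 and 514 in KO (0.85, SE 0.22, adjusted p = 0.0634). Both were higher in KO within each batch. The third c-subunit gene, Atp5g1, went the other way, at 364, 231 and 171 CPM in WT and 266, 146 and 112 in KO. Atp5b, the catalytic beta subunit, was at 85.2, 106 and 247 CPM in WT and 205, 213 and 263 in KO (0.78, SE 0.24, adjusted p = 0.0981). Atp5k, the highest WT member of complex V there, was at 1258, 921 and 407 CPM in WT and 496, 541 and 383 in KO (-0.75, SE 0.26, adjusted p = 0.129).

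In complex IV Cox7c was at 13.5, 12.9 and 153 CPM in WT and 37.8, 35.5 and 145 in KO (0.91, SE 0.30, adjusted p = 0.114), and Cox5b at 77.3, 80.6 and 196 against 136, 139 and 225 (0.60, SE 0.21). For Cox7c the difference on the log2(CPM + 1) scale was 1.40 in batch 2 and near 0 (-0.08) in batch 3. Of the symbols outside the complexes, Atp5sl gave -0.57 (SE 0.24), Cox7a2l -0.30 (SE 0.23) and Atp5s 0.29 (SE 0.45).

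**Figure D5:**
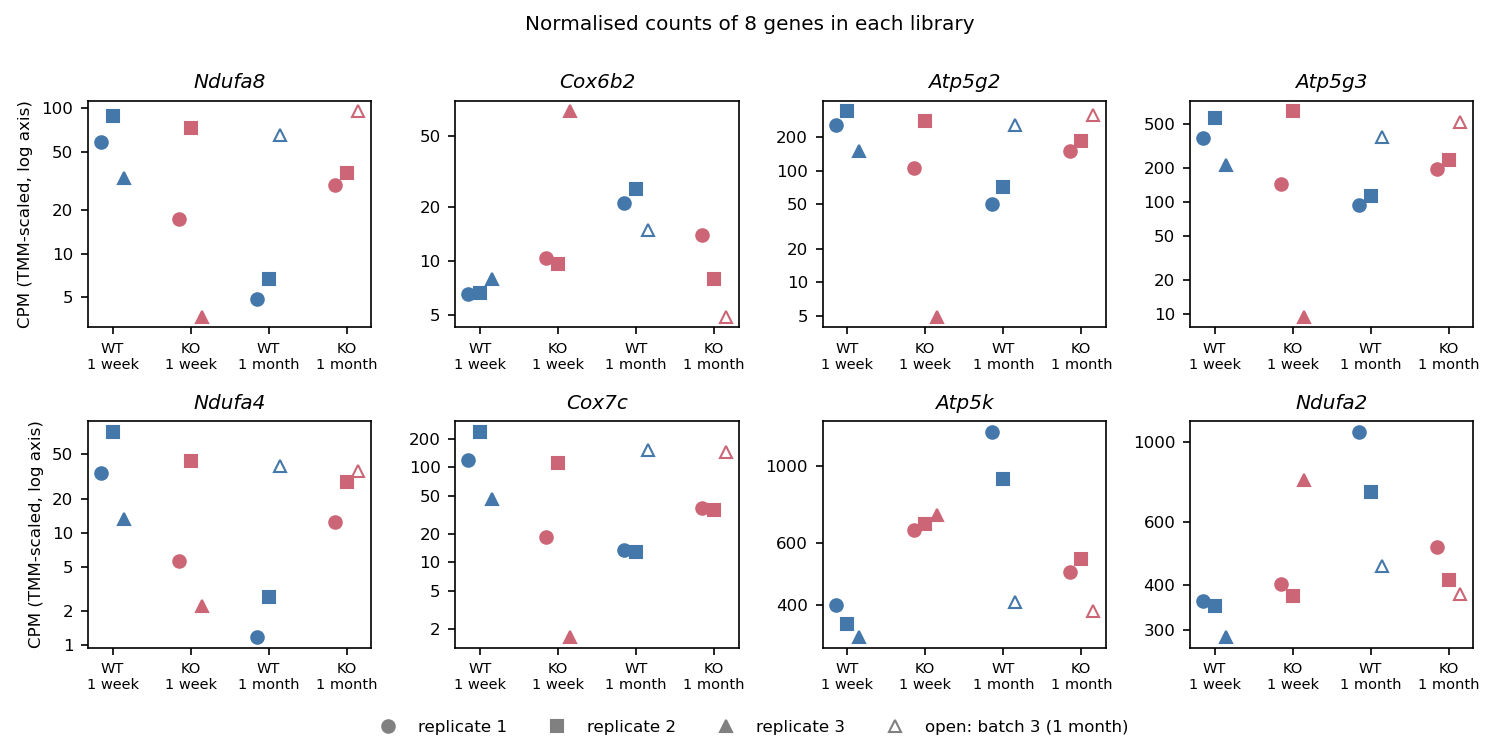
CPM (y axis, log scale) of 8 genes in the 12 libraries by genotype and time (x axis); symbols give the replicate, and open triangles the batch 3 libraries of 1 month. Ndufa8, Atp5g2, Atp5g3, Ndufa4 and Cox7c are low in the batch 2 WT libraries of 1 month and in KO replicate 3 of 1 week, whereas Atp5k and Ndufa2 are high in the batch 2 WT libraries.

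Batch 2 alone, with 2 libraries against 2, gave 15 of 84 members past the threshold, where 12.2% of 12103 genes passed. The 12 that were higher in KO were Ndufa1, Ndufa8, Ndufb3, Ndufa4, Cox5a, Cox5b, Cox7b, Cox7c, Atp5b, Atp5g2, Atp5g3 and Atp5j, and the 3 that were lower were Ndufa2, Cox6b2 and Atp5k. These genes are named because of their values. Ndufa4 had the steepest value, with 1.18 and 2.69 CPM in WT and 12.5 and 28.5 in KO (log2 fold change 3.38, SE 0.50, adjusted p = 0.00108), but 39.4 CPM in WT and 35.5 in KO in batch 3. Its fold change over both batches was 1.89 (SE 0.93). Cox7b, an X-linked subunit of complex IV, was at 36.5 and 37.9 CPM in WT and 90.9 and 99.6 in KO in batch 2, and at 162 and 129 in batch 3. Over both batches Cox7b had 0.79 (SE 0.31), Ndufb3 0.68 (SE 0.30), Atp5j, a stalk subunit, 0.58 (SE 0.26), and Cox5a 0.65 (SE 0.24).

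The 12 upward genes did not repeat as a group in batch 3, where KO was above WT for 7 and below for 5, at -0.33 to 0.54 on the log2(CPM + 1) scale, against 0.79 to 2.82 in batch 2. For all 12 the WT library of batch 3 was above both WT libraries of batch 2. In the KO library of 1 week described above, 11 of the 12 were below -1 relative to the mean of KO replicates 1 and 2. So were 42 of the 80 members (52.5%) and 25% of all genes. Near-identical copies were found for 6 of the 12, against 24.4% of members and 9.86% of genes. The 3 downward genes were lower in KO in batch 3 as well, at -1.45 for Cox6b2, -0.26 for Ndufa2 and -0.09 for Atp5k. None of them was low in that KO library of 1 week. Batch 3 held 1 library per genotype, and some of its differences were near 0. They include Atp5k, at 407 CPM in WT and 383 in KO, and of the upward genes Ndufa1 (0.0091) and Cox7c (-0.08). The part of library differences in the calls of batch 2 was not tested. Over all 3 libraries a group, every KO library was above every WT library at 1 month for 2 members, Sdha and Atp5a1 (5.72% of all genes), and below for 1, Cox6b2 (7.58% of all genes), together 3.57% against 13.3%. KO was on the same side of WT within both batches for 23 of 84 members (27.4%), 13 above and 10 below, against 35.7% of all genes.

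Whether the KO effect differed between the times was tested over all 12 libraries. edgeR called 0 of 85 members and 0% of 13122 genes, with 12 members at an unadjusted p under 0.05 (14.1%, against 19.9% of all genes), and DESeq2 called 2 (2.35%, against 6.99%). Without KO replicate 3 of 1 week edgeR called 2 members, Atp5k and Cox6b2, where 2.32% of genes passed. The difference, 1 month minus 1 week, was -1.63 (SE 0.35, adjusted p = 0.0389) for Atp5k and -1.72 (SE 0.41, adjusted p = 0.0473) for Cox6b2. Sex and batch moved with time and genotype in this contrast, and their part cannot be told apart.

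A turn of direction could also be counted by library. In 5 of 85 members, Atp5k, Atp5j2, Cox6b2, Ndufa2 and Ndufs6, every KO library was above every WT library at 1 week and KO was below WT within both batches at 1 month, which 2.54% of all genes also did, and 0 members showed the opposite pattern, which 2.1% of genes did. Ndufs6, an accessory subunit of complex I, was at 128, 118 and 129 CPM in WT and 158, 148 and 198 in KO at 1 week. At 1 month it was at 339, 207 and 152 in WT and 202, 129 and 120 in KO. Atp5j2, subunit f of the ATP synthase, was at 305, 274 and 345 CPM in WT and 420, 415 and 346 in KO at 1 week, where replicate 3 barely cleared the highest WT library. At 1 month Atp5j2 was at 846, 629 and 400 in WT and 596, 378 and 304 in KO. Batch 3 held 1 library per genotype, and Atp5k was there at 407 CPM in WT and 383 in KO.

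Most tissue isoforms of complex IV stood below their common partners, except that Cox6b2 was at 69.0 CPM and Cox6b1 at 22 in KO replicate 3 of 1 week. Cox6a1 was at 238 to 289 CPM in the WT libraries of 1 week and Cox8a at 459 to 624, while the muscle isoforms Cox6a2 and Cox8b had at most 0.246 and 0.615 CPM in any library. The testis isoform Cox8c had no count in any of the 12 libraries, which allows up to 0.316 to 0.538 CPM by library (3 counts, before TMM scaling). Cox7b2 was at 0.478 CPM or below. Cox7a1, the muscle form of subunit 7A, was at 1.46 to 6.10 CPM, and Cox7a2 at 50.8 to 480 CPM. Cox4i1 was at 574, 563 and 730 CPM in WT and 516, 412 and 737 in KO at 1 week, and at 1600, 975 and 634 against 1207, 582 and 428 at 1 month. Ndufa4l2, a relative of Ndufa4 known to respond to low oxygen, was at 0.82 to 6.10 CPM.

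Other mitochondrial gene lists were read with the same fits. None of the 13 genes of mitochondrial DNA was in the tables, and these were not analysed here. The 5 mitochondrial lists were electron carriers, assembly factors, citric acid cycle, biogenesis regulators and mitochondrial ribosomal proteins. At 1 week no gene of them passed in edgeR, where 0.0627% of all genes did. An unadjusted p under 0.05 was reached by 1 (20%), 2 (8%), 1 (5.56%), 0 and 1 (1.33%) in turn, against 15.5% of all genes. DESeq2, which called 7.5% of all genes, called Cycs and Foxred1, a complex I assembly factor, and none in the other 3 lists. Cycs, cytochrome c, which carries electrons from complex III to IV, was at 86.7, 87.7 and 101 CPM in WT and 137, 196 and 171 in KO at 1 week, without overlap (0.87, SE 0.27, adjusted p = 0.198). At 1 month 1 of 75 tested mitochondrial ribosomal protein genes passed, Mrps12, which fell (-1.82, SE 0.29, adjusted p = 0.0119). None passed in the other 4 lists, against 2.22% of all genes. An unadjusted p under 0.05 was reached by 0 electron carriers, 3 assembly factors (12%), 5 citric acid cycle genes (27.8%) and 3 regulators (20%). The share of all genes was 21.5%. In these 4 lists DESeq2 called 1 gene, Idh3b of the citric acid cycle, and it called 6.33% of all genes. Of the mitochondrial ribosomal protein genes, 17 of 75 (22.7%) had an unadjusted p under 0.05, and DESeq2 called 3, Mrpl33, Mrpl39 and Mrps12. Of 14 outer membrane and import genes 5 had a positive value at 1 week, median -0.42. DESeq2 called 1 of them, Tomm40, an import channel gene, lower in KO, and so did edgeR without KO replicate 3 (-1.19, adjusted p = 0.0496). At 1 month 13 of the 14 had a positive value, median 0.39, and 0 passed in edgeR. There were 4 at an unadjusted p under 0.05 (28.6%, against 21.5% of all genes), and DESeq2 called 1, Timm23.

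The cytosolic ribosomal proteins, which also have short transcripts, gave a median of -0.82 at 1 week, with 7 of 80 tested genes positive, and -0.57 without KO replicate 3, with 3 of 80 positive. The respiratory chain genes did not share that direction without the library, at a median of 0.06. At 1 month the medians were 0.02 for cytosolic ribosomal proteins and 0.04 for the respiratory chain genes. DESeq2 called 11 of 78 tested cytosolic ribosomal protein genes at that time and 6.33% of all genes, while edgeR called 0 of the 78. At 1 week without KO replicate 3, 34 of the 80 (42.5%) had an unadjusted p under 0.05, against 20.4% of all genes. In that fit edgeR called 1 of the 80, where 2.45% of all genes passed.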

How the data were processed

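The authors deposited 2 tables of raw counts per gene symbol, one per time, from QuantSeq 3′ mRNA libraries that keep strand, per the labels' protocols. TopHat, Bowtie, HTSeq, DESeq2 and the build mm10 are named in the submitters' processing notes; the annotation is not given in the sources used here. The 90 members and all lists were chosen with earlier results of these data known.

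Counts were scaled by TMM within each time and tested with edgeR 4.0.16 (robust quasi-likelihood, two-sided, filterByExpr, Benjamini-Hochberg over all genes tested, threshold 0.05), with batch as a covariate at 1 month and over all 12 libraries for the difference between times. SE is the log2 fold change divided by the root of F. DESeq2 1.42.0, other scalings and filters and leaving out libraries were alternatives. Transcript lengths and gene positions came from GENCODE M21 on GRCm38, copies from blastn 2.17.0. The scripts were tested on simulated data. Named genes were all members past the threshold, the 3 smallest p and the 3 highest WT levels per complex, tissue isoforms and, after their values were seen, those called in batch 2 alone. A gene that this rule names is not reported here. No 2 replicates agreed within counting noise (chi-square per degree of freedom at least 8.59). Intervals and floors cover counting error only.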

Additional observations from a re-analysis of the deposited data

Results flagged for a closer look

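Without KO replicate 3 of 1 week, the test of the difference between times called 2 of 85 members (2.35%), against 2.32% of all genes. The KO effect on Atp5k at 1 month minus that at 1 week was -1.63 on the log2 scale (SE 0.35, edgeR adjusted p = 0.0389), and that on Cox6b2 was -1.72 (SE 0.41, adjusted p = 0.0473). In both genes KO was above WT in every library at 1 week and below WT within both batches at 1 month. For Atp5k the batch 3 libraries, 1 per genotype, were at 407 CPM in WT and 383 in KO. With all 12 libraries neither passed, and over 9 alternatives the adjusted p ran from 0.00188 to 0.131 for Atp5k and from 0.0109 to 0.163 for Cox6b2. The KO libraries of 1 week differ from WT in Xist and Y-linked counts as well as in genotype.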

How the results depend on the processing

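At 1 week 0 members passed in edgeR and 1 in DESeq2, and leaving out single libraries gave 0. At 1 month the 2 calls became 6 with library size alone as scaling, 9 with no filter on low counts, 6 with DESeq2, 1 with dispersions estimated without the robust option, 0 without the batch covariate, 15 in batch 2 alone and 0 to 15 when single libraries were left out. The shares of members and of all genes were 7.14% and 4.58% with library size alone, and 10.2% and 7.09% with no filter. They were 7.14% and 6.33% with DESeq2, and 17.9% and 12.2% in batch 2 alone. The fits without 1 library of batch 3 repeat batch 2 alone through the batch term. Among the 15 alternatives of 1 month they are thus not separate checks. For the difference between times the 0 calls became 2 with DESeq2 and 2 without KO replicate 3 of 1 week. Over all genes the 8 calls of 1 week became 62 with no filter, 957 with DESeq2 and 0 to 320 when single libraries were left out. The 269 of 1 month became 556 with library size alone, 1276 with no filter, 768 with DESeq2, 1474 in batch 2 alone, 0 without the batch covariate and 45 to 1522 when single libraries were left out. The 0 for the difference between times became 137 with no filter, 917 with DESeq2, 311 without KO replicate 3 of 1 week and 15 without batch 3. Library size alone moved the median of all genes at 1 month to 0.21, the members above 0 from 53.6% to 73.8%, and the medians of complexes I to V to 0.19, 0.41, 0.14, 0.35 and 0.30; relative to that shift complexes I and III stayed below all genes. It moved the mean summed CPM of complex II to 473 in WT and 588 in KO and of complex V in KO to 4654 at 1 month. When single libraries were left out, Sdhd at 1 week ran from -0.90 to 0.19 and Atp5s at 1 month from -0.072 to 0.77. The cause of these changes was not tested. No paired analysis was possible because the labels give no replicate numbers that pair libraries; the numbers used follow the order of the samples. No gene of mitochondrial DNA was in the tables, so the alternative that drops them left out only the 10 most abundant genes. At 5580961 counts, the shallowest library, 3 counts are 0.538 CPM before TMM scaling. A gene with no count there may still have a level up to that value.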
